A study of Danio rerio with 12 samples.

Results

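Ribosomal protein genes encode the proteins of the cytosolic ribosome, the machine that translates messenger RNA. Genes were counted as members when the platform annotation gave a probe set a single symbol that starts with rpl or rps and a digit, or with rplp, or is rpsa, with the S6 kinase genes (rps6k) left out. This gave 79 probe sets of 74 genes among 8793 genes named on the array, and the probe set with the highest mean retina signal stood for each gene. Of the 74, 44 encode proteins of the large (60S) subunit and 28 proteins of the small (40S) subunit. The other two carry matching symbols but are not subunits of the mature ribosome: rpl7l1, a large subunit paralog that in human cells belongs to ribosome precursors, and rps19bp1, a protein that binds the small subunit protein Rps19. Genes of the ribosome that have no single-symbol probe set here, such as rplp1, were not analysed here.

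The series profiled total RNA of adult Danio rerio on Affymetrix zebrafish arrays, with 5 arrays of lesioned retina, 5 of control retina from matched animals, 1 of retina that the submitters call a true control, and 1 of unlesioned brain. For each of the days 2, 3, 5, 7 and 14 post-lesion there is a single array of lesioned and a single array of control retina, so no day has replicates of its own. Per the design text a condition drew on 8 or more animals, matched between lesioned and control; how they map to the single array of a condition is not stated. The kind of lesion, the strain and the exact age are left unstated by the sources used here. Levels are linear signal intensities, and changes are differences of log2(signal + 50), lesioned minus control of the same day or brain minus retina.

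Each ribosomal protein sits in a defined place in 1 of the subunits, and the subunits are assembled in the nucleolus with the help of many biogenesis factors. In vertebrates the genes are regulated together, in large part through a pyrimidine tract at the start of their transcripts that places translation under the control of mTOR signalling. The adult zebrafish retina regrows neurons from Müller glia, which re-enter the cell cycle after injury, and dividing cells are known to make more ribosomes than resting ones.

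The arrays lay in 2 blocks of 6 that cut across lesion status, found from the hybridization controls. Block 1 held brain, the true control and days 2 and 14, and block 2 held days 3, 5 and 7. The 5'/3' signal ratio of GAPDH, a measure of RNA integrity and labelling length, ranged over 0.692 to 0.854 in block 1, against 0.103 to 0.245 for the arrays of block 2. Within a day it was lower in the lesioned array each time, by log2 differences of -0.03, -0.62, -0.35, -0.25 and -0.08 on days 2, 3, 5, 7 and 14. All 6 retina markers were called lower in brain (crx, a photoreceptor transcription factor, had a signal of 32.2 in brain and 4903 to 8701 in the 6 unlesioned retinas). All 10 tested brain markers were called higher in brain (epd, ependymin, had 27559 in brain and 3.8 to 18.4 in unlesioned retinas). The member signals were bright on each array: the median member lay at the 97.1st to 98.9th percentile of all probe sets.

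Lesioned retinas had more ribosomal protein transcript signal than control retinas on the days 2 to 7, and about equal or slightly less on day 14. The median member ratio was 0.33 on day 2 (a 1.25-fold difference), 0.62 on day 3 (1.54-fold), 0.21 on day 5 (1.16-fold), 0.61 on day 7 (1.52-fold) and -0.07 on day 14. The number of members higher in the lesioned retina was 73, 72, 67, 73 and 28 of 74 on these days. Over all 9301 probe sets tested the median ratio stayed between -0.01 and 0.01, and 48.8% to 51.7% were higher. The brightest 10% of the tested probe sets without the members had medians of -0.06, -0.04, -0.03, -0.06 and -0.07 on days 2, 3, 5, 7 and 14. The members stood above that bright stratum on days 2 to 7 and level with it on day 14. A larger number of ribosomal protein transcripts per cell and a larger share of cells rich in them cannot be told apart in whole retina.

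**Figure D1:**
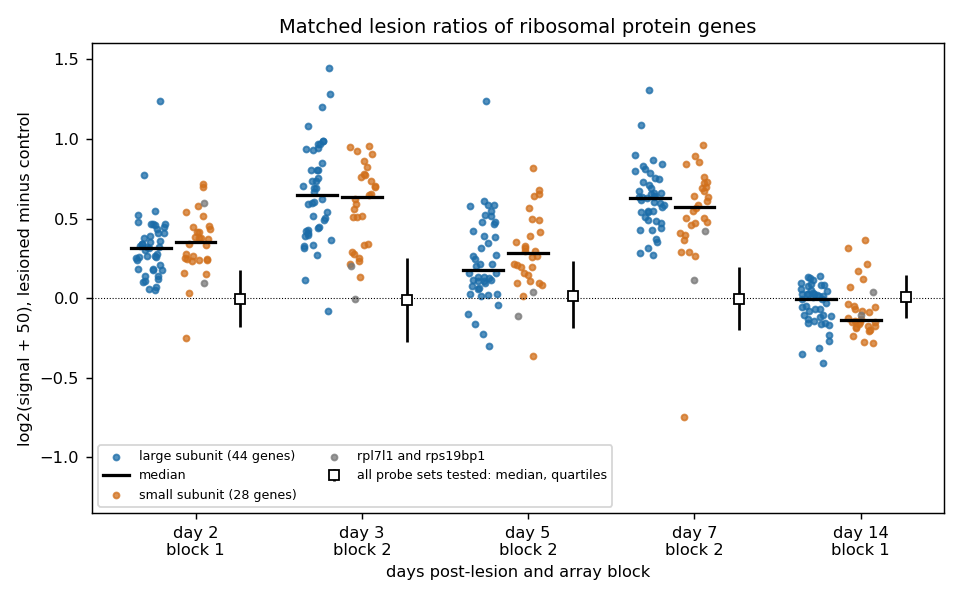
Matched log2(signal + 50) difference, lesioned minus control, of each member by day post-lesion, with large subunit genes in blue, small subunit genes in orange and the 2 other members in grey. Black bars are medians of the subunits and open squares the median and quartiles of all 9301 probe sets tested. Most members lie above 0 on days 2, 3, 5 and 7, and 28 of 74 do on day 14.

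Averaged over the 5 matched pairs, 73 of 74 members had a positive fitted change, against 48.2% of all probe sets tested. The median member change was 0.34 (1.26-fold), with an interquartile range of 0.25 to 0.43. At an adjusted p under 0.05 in limma, 16 of 74 members rose and 0 fell, where 60 had an unadjusted p under 0.05. Those 60 were 81.1% of the members, against 18.1% of all probe sets and 25.1% of the brightest 10% without the members. Over all probe sets 4.10% passed, of which 3.56% rose and 0.538% fell, so the members' share of rises (21.6%) was above the background. The genes that rose were rplp2b, rpl27a, rps12, rps27l, rpl23, rpl22l1, rps6, rps24, rpl9, rpl14, rpl5b, rps25, rps15a, rpl36a, rps7 and rpl5a. The threshold cut through a continuous series of changes, with rps25 just inside it (adjusted p = 0.0484) and rpl21 (0.49, adjusted p = 0.0503) and rps26l (0.50, adjusted p = 0.0531) just outside. The count changed with the days and with an RNA quality covariate: it was 1 without day 7, 2 without day 5, 3 without day 3, 5 without day 2 and 41 without day 14. The share of all probe sets that passed moved in the same order, at 1.77%, 2.1%, 2.57%, 3.01% and 6.16%. The gene rplp2b did not pass without day 7 (adjusted p = 0.0553), and 14 of the 16 did not pass in at least 3 of the 5 fits that each left out a day. With the GAPDH ratio of each array as a covariate 0 of 74 members passed in limma (4 at an unadjusted p under 0.05), 65 had a positive change and the median was 0.13, while 10 of 9301 probe sets passed. Of all 9301 probe sets, 673 had an unadjusted limma p under 0.05 in that fit, so the members' 4 did not stand out.

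Within the blocks, the pairs of days 3, 5 and 7 alone gave 37 members up, with a median of 0.47. Of all probe sets, 5.31% passed there. The pairs of days 2 and 14 alone gave 0 in limma (4 at an unadjusted p under 0.05), with a median of 0.13. No probe set of the array passed in that fit (0%), so the 0 is not particular to the members. Unadjusted, 784 of 9301 probe sets had a limma p under 0.05 in it. Days 2 and 14 join ratios of opposite median sign. On day 2 the GAPDH ratio differed by -0.03 between the lesioned and control arrays, and 73 of 74 members were higher in the lesioned retina. On days 3, 5 and 7 it differed by -0.62, -0.35 and -0.25, beside member medians of 0.62, 0.21 and 0.61. The relation over these days was not tested.

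**Figure D2:**
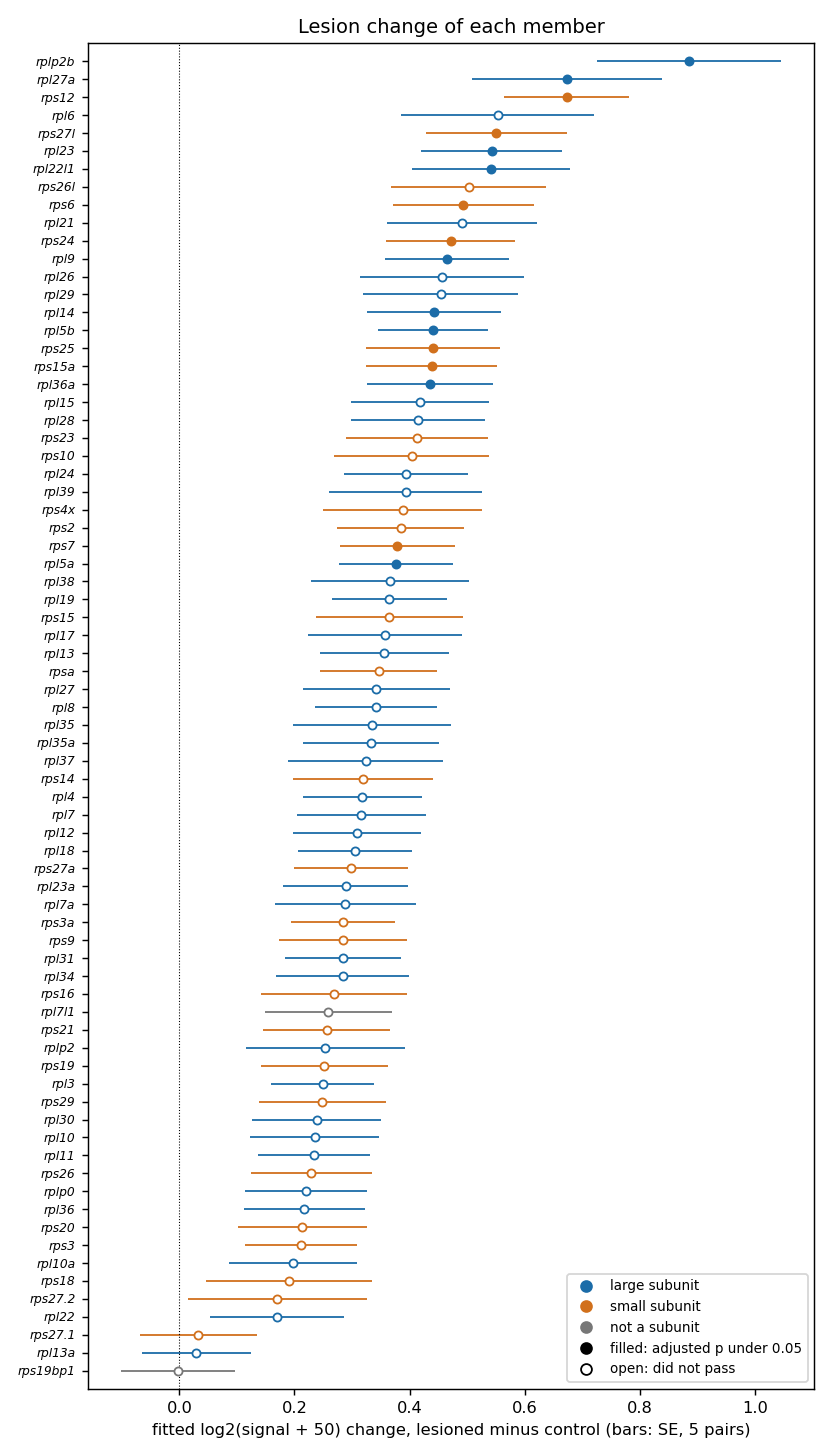
Fitted log2(signal + 50) change of each member over the 5 matched pairs, lesioned minus control, with SE bars, ordered by size. Filled points passed an adjusted p under 0.05; 73 of 74 points lie above 0 and 16 are filled.

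The largest fitted rise was in rplp2b, a copy of the acidic protein P2 of the ribosomal stalk, the flexible arm of the large subunit that recruits elongation factors. Its signal was 5922, 11745, 13068, 13051 and 3195 in lesioned retinas on days 2, 3, 5, 7 and 14, against 2477, 4798, 8681, 5245 and 3171 in control retinas. The lesioned retina was higher on days 2 to 7, and on day 14 the arrays of the pair differed by 0.01. The fitted change was 0.89 ± 0.16 (SE, 5 pairs; 1.85-fold; adjusted p = 0.00572). The other stalk genes had smaller changes that did not pass. P2 itself, rplp2, had ratios of 0.07, 0.81, 0.53, 0.27 and -0.40 (fitted 0.25, adjusted p = 0.366). The stalk base rplp0 had 0.05, 0.39, 0.13, 0.62 and -0.08 (fitted 0.22, adjusted p = 0.292).

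The next in size was rpl27a, a large subunit protein. Its signal was 3142, 2016, 2596.5, 2705 and 1621 in lesioned retinas on days 2, 3, 5, 7 and 14, against 1820, 848, 1724, 1246 and 1967 in control retinas. It was higher on days 2 to 7 and lower on day 14 (0.67 ± 0.17 SE, adjusted p = 0.0339). In the same subunit rpl23, which in mammals binds and restrains the p53 regulator Mdm2, rose by 0.54 ± 0.12 (adjusted p = 0.0217). Its signal was 9862, 9820, 8094, 10201 and 8383 in lesioned retinas, against 7422, 4929, 6032, 5664 and 8071 in control retinas. The lesioned values stayed in a narrow band over the days, and each of them was above all 5 control values.

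In the small subunit rps12 rose most and with the smallest p of the members. Its signal was 5934, 7429, 8025, 7549 and 4813 in lesioned retinas on days 2, 3, 5, 7 and 14, against 3598, 3808, 5123, 4190 and 4145 in control retinas. The lesioned retina was higher on all 5 days, and the groups overlapped only through the lesioned array of day 14 and the control array of day 5 (0.67 ± 0.11 SE, 1.59-fold; adjusted p = 0.00269). It was the 1 member that passed when any single day was left out, with adjusted p up to 0.0285. The small subunit protein rps6, the substrate of S6 kinase downstream of mTOR, rose by 0.49 ± 0.12 (adjusted p = 0.0361). Its ratios were 0.45, 0.92, 0.42, 0.72 and -0.05 on days 2, 3, 5, 7 and 14.

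The highest single ratio of any member was that of rpl6, a large subunit protein, on day 3 (1.45). Its fitted change of 0.55 ± 0.17 SE did not pass (adjusted p = 0.0809), and it was chosen for that ratio.

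The remaining rises were similar in size, with their highest ratios on day 3, 5 or 7. The large subunit genes rpl9, rpl14, rpl5b, rpl36a and rpl5a had fitted changes of 0.46, 0.44, 0.44, 0.44 and 0.38, with adjusted p from 0.0176 to 0.0471. The small subunit genes rps24, rps25, rps15a and rps7 had 0.47, 0.44, 0.44 and 0.38, with adjusted p from 0.0289 to 0.0484. In humans rps24 and rpl5 are among the genes mutated in Diamond-Blackfan anaemia, a disorder of ribosome production. The least changed were rpl13a (0.03 ± 0.09 SE, adjusted p = 0.908), a gene often used as a reference in quantitative PCR, rps27.1 (0.03, adjusted p = 0.905) and rps19bp1 (-0.00, adjusted p = 0.995). The gene rpl13a was picked for mention because its change was small. Its signal was 7975, 4460, 8068, 8639 and 7166 in lesioned retinas, against 7673, 4713, 7995, 6944 and 7994 in control retinas, and the groups overlapped.

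**Figure D3:**
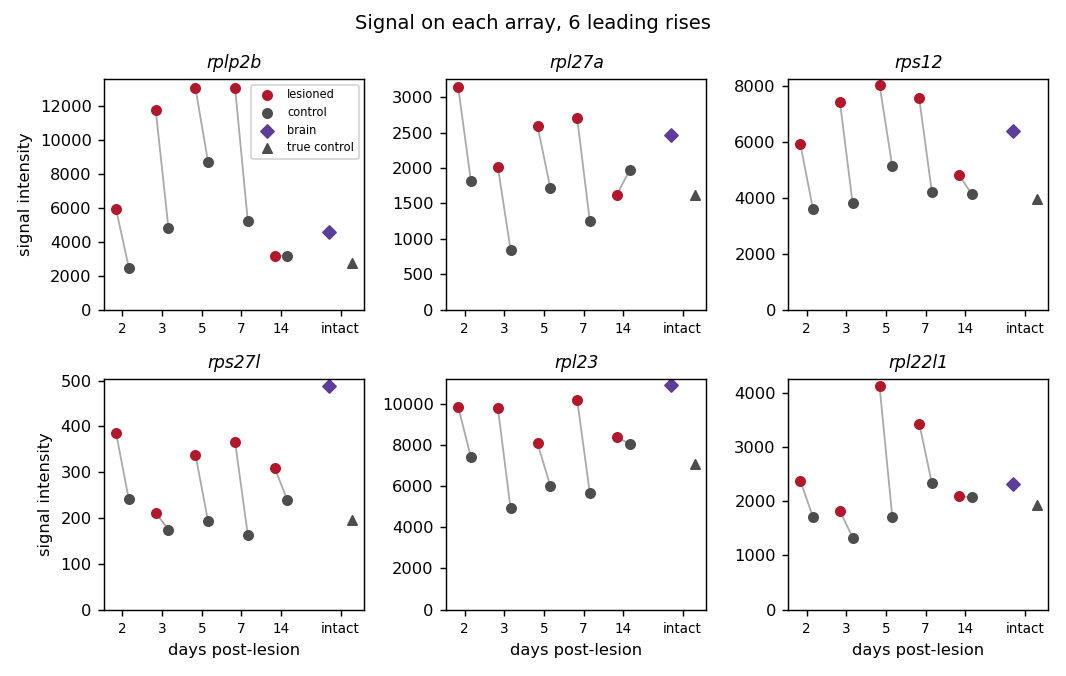
Signal intensity of the 6 members with the largest rises past the threshold, with 1 array per point. Days are evenly spaced and each lesioned array (red) is joined to the control array (grey) of its day; brain (purple diamond) and true control retina (grey triangle) are at the right. On day 14 the red and grey points of rplp2b and rpl22l1 coincide and rpl27a is lower in the lesioned array.

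Several members exist as related copies, and their changes were not alike in size. The gene rps27l encodes an Rps27-like protein whose mammalian counterpart is induced by p53. Its signal was 385, 211, 338.5, 366 and 309 in lesioned retinas on days 2, 3, 5, 7 and 14, against 241, 175, 192, 164 and 238 in control retinas. It was higher on all 5 days, day 14 included (ratio 0.32), and the groups overlapped through the lesioned array of day 3 (0.55 ± 0.12 SE, adjusted p = 0.0209). The copies rps27.1 and rps27.2 did not pass: rps27.1 had ratios of -0.25, 0.13, 0.16, 0.29 and -0.16, and rps27.2 had 0.70, 0.24, 0.30, -0.74 and 0.36 (fitted 0.17, adjusted p = 0.620). The day 7 value of rps27.2 was the lowest ratio of any member on any day. The other probe sets of rps27.1 had fitted changes of -0.01 and 0.10, also short of the threshold.

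The paralog pair rpl22 and rpl22l1, which have opposed roles in zebrafish blood formation, is another case. The signal of rpl22l1 was 2378, 1820, 4116, 3428.5 and 2086 in lesioned retinas on days 2, 3, 5, 7 and 14, against 1708, 1328, 1713, 2326 and 2073 in control retinas. Its highest ratio was on day 5 (1.24), a day on which the members' median was 0.21 (0.54 ± 0.14 SE, adjusted p = 0.0404). The ratios of rpl22 were 0.31, 0.43, 0.02, 0.43 and -0.35, and its fitted change of 0.17 did not pass (adjusted p = 0.491). The copies rpl5a and rpl5b, whose product binds 5S RNA and, in mammals, Mdm2, both rose (0.38 ± 0.10 and 0.44 ± 0.10 SE). For rps26l and rps26 the fitted changes were 0.50 (adjusted p = 0.0531) and 0.23 (adjusted p = 0.266). The laminin receptor gene rpsa, also a small subunit protein, had 0.35 (adjusted p = 0.0740), and rpl7l1 had 0.26 (adjusted p = 0.220). Near-identical copies can share probe signal, so these paralog values are uncertain in that respect, and the difference between copies was not tested.

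The large and small subunits had close medians on days 2 to 7. Median ratios of the 44 large subunit genes were 0.32, 0.65, 0.18, 0.63 and -0.00 on days 2, 3, 5, 7 and 14, and those of the 28 small subunit genes 0.35, 0.63, 0.28, 0.58 and -0.14. The difference, large minus small, was -0.04, 0.01, -0.10, 0.06 and 0.13, and changed sign between days. Fitted medians were 0.34 and 0.33, with 9 of 44 large and 7 of 28 small subunit genes up. On day 14, 21 of 44 large and 6 of 28 small subunit genes were higher in the lesioned retina. No test is given for these medians, since the members were chosen with earlier results of these data known.

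Over time, 41 of 74 members were higher on each of days 2 to 7 and lower on day 14, where 4.56% of all tested probe sets had that pattern. Another 23 were higher on all 5 days (9.32% of all), and 0 were lower on all 5 (7.20% of all). The highest ratio was on day 3 for 35 members, on day 7 for 31, and on days 2 and 5 for 4 each. The day 14 ratio minus the mean ratio of days 2, 3, 5 and 7 was negative for 73 of 74 members, with a median of -0.50 and the lowest value for rpl27a (-1.18). In limma 0 members passed for this contrast (smallest adjusted p = 0.759), with 30 of 74 at an unadjusted p under 0.05, against 3.64% of all tested probe sets, none of which passed either (0% called). A slope on log2 of the day was called for 0 members, where 5 had an unadjusted p under 0.05, and for 0.108% of all probe sets. Those 5 were 6.76% of the members, against 3.54% of all probe sets at that unadjusted limma p. The median slope was -0.14 per doubling of the day, and 0.05 without day 14, so its direction rested on that pair. Both fits leave 3 residual degrees of freedom, and the day 14 contrast has a single pair on one side. Day 14 lies in array block 1 and days 3, 5 and 7 in block 2, so this contrast and the peaks on days 3 and 7 run largely along the blocks. Between the days of block 1 alone, the member medians were 0.33 on day 2 and -0.07 on day 14. The order of members was only loosely kept between days: across the 74 members, which are not independent, ratios of different days correlated at Pearson r of -0.15 (days 3 and 14) to 0.46 (days 3 and 7).

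**Figure D4:**
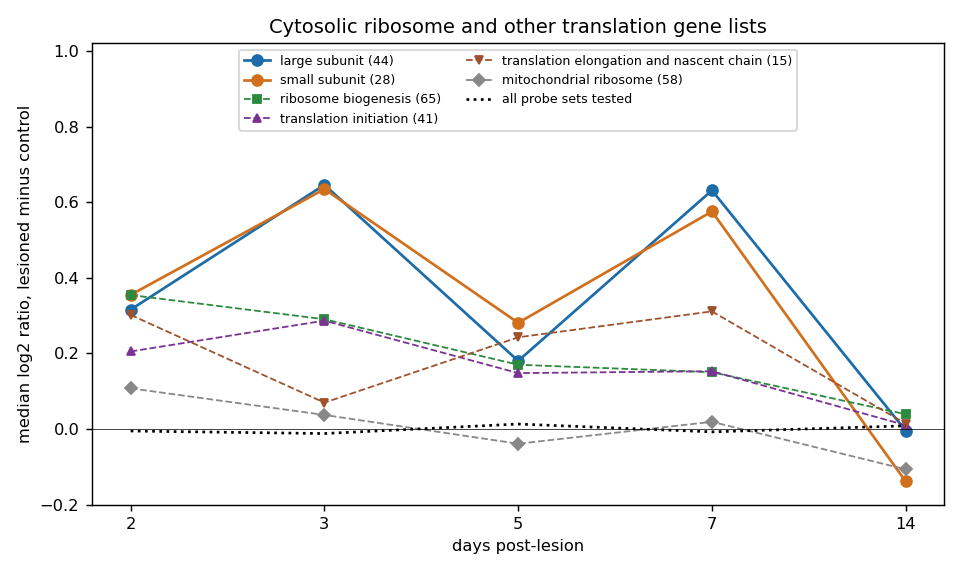
Median matched log2(signal + 50) ratio, lesioned minus control, by day post-lesion (days evenly spaced) for the large and small subunit genes and for 4 other lists of translation genes, with the number of genes in brackets. The subunit lines lie highest on days 3 and 7 and on day 14 the lines lie between -0.14 and 0.04.

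Other lists of ribosome production and translation genes had smaller median fitted changes over the 5 pairs, though not smaller medians on every day. On day 2 the ribosome biogenesis median (0.35) was slightly above that of the members (0.33). On day 5 the median of elongation and nascent chain genes (0.24) was above that of the members (0.21). Of 65 tested ribosome biogenesis genes 56 had a positive change, 3 rose and 0 fell, with a median of 0.18. The share that rose (4.62%) was near that of all tested probe sets (3.56%). Those that rose were nop58, a core protein of box C/D small nucleolar particles (0.57 ± 0.13 SE, adjusted p = 0.0217), utp15, a subunit of the small subunit processome (0.48 ± 0.12, adjusted p = 0.0362), and tsr1, a late 40S assembly factor (0.47 ± 0.12, adjusted p = 0.0425). The ratio of nop58 was highest on day 2, at 1.20, and 0.42, 0.44, 0.46 and 0.30 on days 3, 5, 7 and 14. The biogenesis median itself was highest on day 2, at 0.35, and 0.29, 0.17, 0.15 and 0.04 on the later days.

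Of 41 translation initiation genes 4 rose (9.76%, against 3.56% of all) and 0 fell, with a median of 0.18. They were eif5a2, a hypusinated factor (0.55 ± 0.12 SE), eif2s1a, the alpha subunit of eIF2 (0.55 ± 0.10), pabpc4, a poly(A)-binding protein (0.52 ± 0.12), and eif3ha, a subunit of eIF3 (0.51 ± 0.11). Of 15 genes of elongation and nascent chain handling 10 had a positive change, 4 rose (26.7%) and 0 fell, with a median of 0.21. Those that rose were eef2b, the translocase eEF2 (0.56 ± 0.12), eef1a1l1, an eEF1A gene (0.56 ± 0.10), eef2k, the kinase that inhibits eEF2 (0.45 ± 0.10), and eef1b2, an exchange factor subunit (0.42 ± 0.11). The eEF1A genes eef1a1a (-0.15, adjusted p = 0.404) and eef1a1b (-0.30, adjusted p = 0.105) did not pass. Both were lower in the lesioned retina on each day. Proteins of the mitochondrial ribosome, a separate particle, had no clear shift: in limma 0 of 58 passed, 28 were positive and the median was -0.02.

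Several lists of cell markers also moved with the lesion. For comparison, 3.56% of all tested probe sets rose past the threshold and 0.538% fell. Immune cell markers rose in 8 of 9 tested cases (11 on the array), with medians of 1.13, 1.25, 1.14, 1.20 and 0.22 on days 2, 3, 5, 7 and 14. Their summed signal was 5074 to 10643 in lesioned and 2111 to 3859 in control retinas. Cell cycle markers rose in 5 of 7 tested cases (14 on the array), with day medians of 0.19, 0.75, 0.88, 1.14 and 0.24 and sums of 4638 to 8360 in lesioned and 3348 to 3663 in control retinas. Erythrocyte markers had 0 of 4 called by limma, with day medians of 0.74, 1.36, 0.84, 0.45 and -0.39 and sums of 3132 to 21125 in lesioned and 1034 to 12149 in control retinas. Müller glia markers rose in 2 of 7 tested cases (8 on the array), vim and apoeb, with 4 of 7 positive and a median of 0.35. Their day medians were 0.09, 0.33, 0.34, 0.23 and 0.06, and their sums were 30352 to 42009 in lesioned and 29072 to 35985 in control retinas, higher in the lesioned retina on all 5 days. Cone markers fell in 1 of 6 tested cases (opn1mw1), with sums of 95016 to 162324 in lesioned and 115091 to 157710 in control retinas. Rod markers fell in 2 of 4 tested cases, with sums of 41706 to 61742 in lesioned and 66934 to 78678 in control retinas. The neutrophil marker mpx (mean signal 25.2 in lesioned and 16.2 in control retinas) and the macrophage marker csf1ra (37.2 in lesioned and 20.6 in control retinas) were near background. The part of these cells in the ribosomal protein result was not tested.

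Brain had more ribosomal protein signal than intact retina of its own array block. With the block as a term, the fitted difference equals brain minus the mean of the 3 unlesioned retinas of block 1, and the other 3 add only to the estimate of the spread. It was positive for 72 of 74 members, against 54.7% of all probe sets. The median member difference was 0.37 (1.29-fold), against 0.06 over all probe sets tested. Large subunit genes had a median of 0.39 and small subunit genes 0.35. Of the 74, 64 were above all 3 unlesioned retinas of block 1, where 43% of all probe sets were, and 2 were below all 3, where 33.7% were. Against all 6 unlesioned retinas, without regard to the block, 31 were above (32.7% of all) and 1 below (20.8% of all). In limma 2 of 74 passed, both higher in brain (2.70%), against 24.3% of all probe sets called, 14.1% higher and 10.3% lower. The spread of the single brain array was taken from the retinas. How many members passed moved with the retinas used. The share of all probe sets in those fits was not compared, so that movement is not read as a result about the members.

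The genes called in brain also rose after the lesion, in comparisons that share the 5 control retinas. The signal of rps27l was 488 in brain, against 194.5, 241 and 238 in the true control and the day 2 and day 14 controls of block 1 (0.97 ± 0.21 SE, 1.96-fold; adjusted p = 0.00920). That of rps12 was 6385 in brain, against 3960, 3598 and 4145 (0.71 ± 0.22 SE; adjusted p = 0.0452), and it did not pass without the true control (0.0874), the day 2 control (0.116), the day 14 control (0.0676) or the day 7 control (0.0508). Brain lay above each of these retinas for both genes. Next in size were rplp2b (0.72, adjusted p = 0.147), rpl36a (0.71, adjusted p = 0.0503), rpl23a (0.70, adjusted p = 0.138) and rpl7 (0.67, adjusted p = 0.190), which did not pass.

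The members below zero were rps20 and rps19bp1. The signal of rps20, a small subunit protein, was 7345 in brain, against 8040, 8930 and 9019 in the true control and the day 2 and day 14 controls. Brain was thus under every unlesioned retina for this gene, although the difference did not pass (-0.23 ± 0.22 SE, adjusted p = 0.505). For rps19bp1 brain had 634, against 828, 777 and 810 (-0.32, adjusted p = 0.369). The lowest positive differences were those of rps4x (0.10), rpl28 (0.10), rplp0 (0.10) and rpl29 (0.13), with adjusted p from 0.741 to 0.851. Immune cell markers summed to 9860 in brain and 2111 to 3859 in unlesioned retinas, and erythrocyte markers to 9657 in brain and 1034 to 12149 in unlesioned retinas. Their part in the brain difference was not tested.

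**Figure D5:**
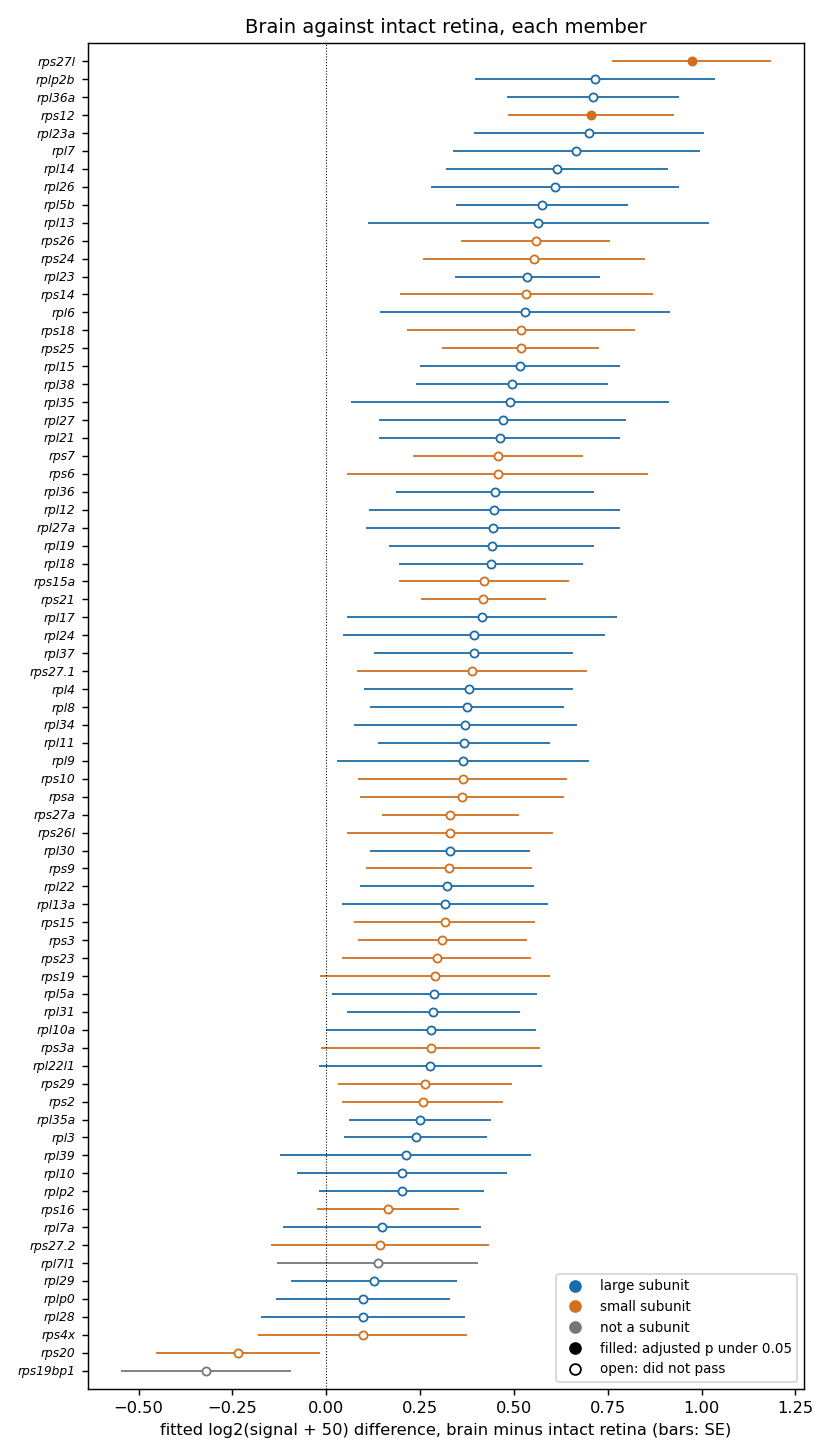
Fitted log2(signal + 50) difference of each member, brain minus the 3 unlesioned retinas of its array block, with SE bars, ordered by size. Filled points (rps27l and rps12) passed an adjusted p under 0.05, and rps20 and rps19bp1 are the 2 members below 0.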

How the data were processed

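The values are signal intensities, 1 per probe set and array, made by the authors with Affymetrix GCOS per the submitters' processing notes, which give no version or settings. The deposited intensity had a trimmed mean of 500.1 on each of the 12 arrays. Of 15617 probe sets, 115 manufacturer controls were left out. Of the rest, 10795 had 1 gene symbol in the platform annotation, 135 several and 4572 none listed. All 74 member gene IDs were found in a current RefSeq gene table with unchanged symbols.

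Intensities were analysed as log2(signal + 50). Each fit kept probe sets whose linear signal, averaged over groups, was at or above the 40th percentile, 9301 in all, and all 74 members were kept. Fits used limma 3.58.1 (lmFit, then eBayes with a trend in mean intensity) under R 4.3.3, with p-values adjusted by Benjamini-Hochberg over all 9301 and a threshold of 0.05. All adjusted p in the text are limma's and two-sided. Lesioned and control retinas were compared with the day as a block, and brain and unlesioned retinas with the array block (which sets brain against the 3 retinas of its block). The fits were also run on simulated data, whose outcome is not used here. The simulated noise was independent between probe sets, so it could not show an effect of RNA quality or of members varying together. The labels pair lesioned and control arrays by day, and same-day arrays deviated together (r of 0.758 to 0.900). For each day the highest r with an array of another day was lower (0.555 to 0.757). It was highest between days 2 and 14, both in block 1, so part of the same-day r may follow the block. No arrays were duplicates (highest Spearman correlation within a group 0.973). The design text gives matched animals, 8 or more a condition, without saying how they map to arrays, so p-values measure the spread between arrays, which may be technical, and the 5 pairs differ in time.

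Members and lists were chosen with earlier results of these data known, and the bright stratum after the data were seen. Named members are the 12 largest rises among members past the threshold, the 6 highest and 6 lowest brain differences, stalk genes and paralogs, and members whose probe sets differ in sign. Other called members are named as such. From the other translation lists, up to 4 called genes each were named. The alternatives were other scalings, pseudocounts, filters, probe sets, days, blocks and an RNA quality covariate. Probe sequences were not used here. Figures were drawn with matplotlib 3.10.9 in Python 3.11.15.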

Additional observations from a re-analysis of the deposited data

Results flagged for a closer look

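Of 64 sets of values examined among the members' medians and the named genes, 1 had an array far from the others of its group, where chance alone gives about 1 in 20 such sets. On the log2(signal + 50) scale rpl7l1 was at 8.96 in the day 2 control retina, against 9.35 to 9.57 in the other 5 unlesioned retinas. The same array is the control of the day 2 ratio of rpl7l1, which at 0.60 was its highest.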

How the results depend on the processing

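The number of members up after the lesion, 16 in the fit reported, was 0 with no replicate block for the day (12 at an unadjusted p under 0.05 in limma), 0 for the pairs of block 1 alone, 37 for block 2 alone, 0 with the GAPDH ratio, 8 after equalising array medians, 3 without the filter, 6 without the intensity trend and 1 to 41 over left-out days. Of all probe sets, 0% passed with no replicate block and 0% for block 1 alone, so these zeros are not particular to the members. With no replicate block 351 of all probe sets had an unadjusted p under 0.05 in limma. The shares that passed were 5.31% for block 2 alone, 0.108% with the GAPDH ratio and 4.67% after equalising medians. They were 1.77% to 6.16% over left-out days. By construction the unfiltered fit adjusts over 15502 probe sets. The share that passed without the filter or without the intensity trend was not compared. Those counts are thus not read as a result about the members. The cause of the other changes was not tested. The median over members was positive in each of these fits. The count higher in brain, 2, was 1 without the block term, 12 with block 1 retinas alone, 1 after equalising medians, 12 after quantile scaling (median 0.52), 1 without the filter and 1 to 4 over left-out retinas. The share of all probe sets in these brain fits was not compared. Their counts are thus not read as a result about the members. Equal medians put the median of all probe sets at -0.07 after the lesion. Signs were compared for the named members only, and those that changed sign were short of the threshold in the comparison concerned. For the lesion these were, in block 1 alone, rps20 (-0.076), rplp0 (-0.016), rplp2 (-0.17), rpl22 (-0.018) and rps27.1 (-0.21). With the GAPDH ratio they were rps19bp1 (0.017), rps20 (-0.044), rplp2 (-0.21), rpl22 (-0.000512) and rps27.1 (-0.14). Others were rps27.2 in block 2 alone (-0.070) and rps27.1 with equal medians (-0.028). Members that are not named changed sign too. Of all 74 members, 64 were positive in block 1 alone, 65 with the GAPDH ratio and 71 with equal medians, against 73 in the fit reported. Over left-out days rps19bp1 ran from -0.031 to 0.025 and rps27.1 from -0.032 to 0.10. For brain the named members that changed sign were, without the block term, rps19bp1 (0.44), rplp0 (-0.081), rps27.2 (-0.27) and rpl5a (-0.013). Over left-out retinas rps27.2 ran from -0.071 to 0.32 and rpl7l1 from -0.040 to 0.27. The cause of these was not tested. The dimmest members were rps27l, rps19bp1 and rpl7l1, and the number of arrays limits the precision.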

Other observations

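Some members differed between the array blocks far more than they did with the lesion. In the 6 unlesioned retinas the block 2 minus block 1 difference had a median of 0.05 over the 74 members, with 35 of them negative, and ran from -1.86 to 1.20. Over all 9301 probe sets tested its median was -0.08, with 5159 negative, and it ran from -5.42 to 3.96. Wide block differences were thus not particular to the members. The gene rps27.1 had a signal of 1755 to 3159 in block 2, against 8423 to 9901 in block 1. For rpl37, a large subunit protein, block 2 had 1490 to 2458, against 6180 to 6584 (-1.74). At the other end rps2, a small subunit protein, had 21587 to 26972.5 in block 2, against 9362.5 to 12747 (1.20). For rpl14 block 2 had 5762 to 9818, against 3408 to 3937 (1.11). These genes were chosen after their values were seen. The matched ratios compare arrays of a single block, so the difference between blocks as such is not in them. The GAPDH ratio, which differed between the blocks, also differed within pairs, most on day 3 (-0.62). The source of the block difference, and whether it also acts within pairs, was not tested.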
